A study of Mesocricetus auratus with 6 samples.

Results

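The genes described here move proteins and RNA through the nuclear pore: the GTPase RAN with its regulators, the importins, the exportins and the nucleoporins. They were listed by symbol, 44 in all, and read through every probe set whose platform annotation gives that symbol alone. This found 42 genes, 4 of the RAN cycle, 13 of import, 5 of export and 20 of the pore, with 97 of the 22215 probe sets tested; all genes measured numbered 11963. NUTF2 and NXF1 were not read by such a probe set and are not analysed here. The list was put together with the rise of RAN in these arrays already known, so all values of this comparison are given as a description.

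Uterus was taken from untreated pregnant Syrian golden hamsters on day 5 of pregnancy, and total RNA was extracted with Trizol. Pieces that held an embryo implantation site (3 arrays) were set against pieces between embryos, the interimplantation sites (3 arrays). No strain, age or altered allele is given for either group, and no label says from which of 3 animals an array came, so errors measure the spread between arrays. Hamster RNA was read on a human Affymetrix array, and how well each probe set matches its hamster transcript is not given in the files, so a dim probe set is weak evidence either way.

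RAN carries cargo direction in its nucleotide. In the nucleus the exchange factor RCC1 loads it with GTP, and in the cytoplasm RANGAP1, helped by RANBP1 and RANBP2, makes it hydrolyse GTP. Importins take up cargo in the cytoplasm and drop it when they meet RAN-GTP, while exportins bind cargo together with RAN-GTP and release it outside. Both pass a channel of phenylalanine-glycine repeats held by ring-shaped scaffolds, which dividing cells take apart and rebuild.

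RAN, NDC1, XPO1, KPNA1, KPNB1 and NUP93 were higher at implantation sites past the threshold, each at 1 probe set, with differences from 1.31-fold to 2.36-fold. They span the cycle, import, export and the pore. In limma's test over all probe sets (adjusted p under 0.05) 6 of 97 probe sets of these genes rose (6.19%) and 0 fell, against 0.702% and 0.356% of all probe sets; before adjustment, a p under 0.05 was reached upward by 23 (23.7%) and downward by 0, against 5.27% and 5.23%. Of the 97, 71 were higher at implantation sites (73.2%, against 46.4% of all probe sets). Their median log2 difference was 0.07, against −0.01 over all probe sets. In 27 probe sets (27.8%) of 20 genes the 3 implantation arrays all lay above the 3 interimplantation arrays, against 7.72% of all probe sets. The reverse held for 2 probe sets, of RANGAP1 and NUP133, or 2.06%, against 8.3%. Since the list was chosen with results of this comparison known, nothing is read from these shares.

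The count of 6 rested on all arrays being present. It was 2 without implantation site 1, 3 without implantation site 2, 2 without implantation site 3, 2 without interimplantation site 1, 5 without interimplantation site 2 and 3 without interimplantation site 3. RAN and NDC1 passed in each of these. The other 4 genes passed in 1 of the 6 each: KPNA1 and XPO1 without interimplantation site 2, NUP93 without implantation site 2 and KPNB1 without interimplantation site 3.

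**Figure D1:**
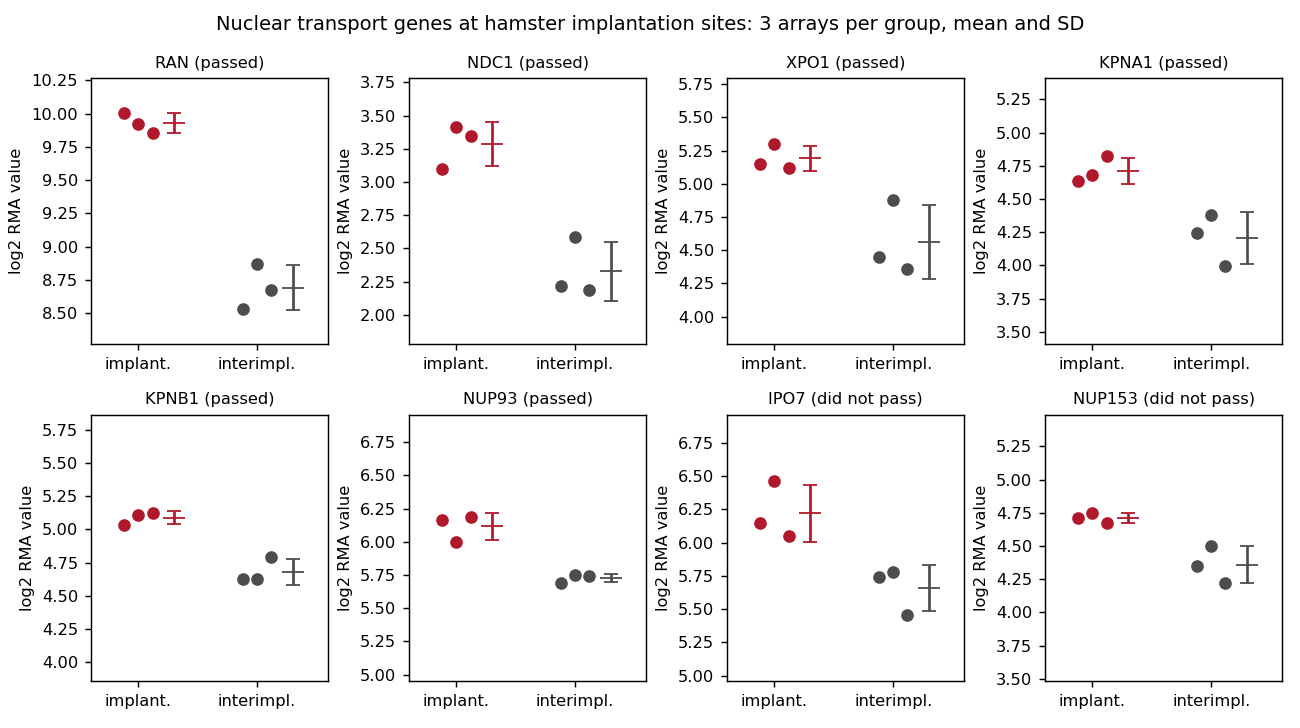
Log2 RMA value (vertical axis, 2 log2 units high in each panel) of 8 probe sets by group; dots are the 3 arrays of each group, and bars show the mean and SD. The groups do not overlap in any panel; the gap is widest for RAN, whose lowest implantation array is at 9.86 and highest interimplantation array at 8.87, while IPO7 and NUP153 did not pass the threshold.

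In the RAN cycle the GTPase itself rose and its regulators did not pass the threshold. At the probe set 200750_s_at the implantation arrays read RAN at 10.01, 9.93 and 9.86 and the interimplantation arrays at 8.53, 8.87 and 8.67, in log2 RMA values. All implantation arrays were high, with no overlap. The difference was 2.36-fold (log2 1.24 ± 0.09 SE, n = 3 arrays per group; limma adjusted p = 0.000133), and adjusted p was at most 0.00194 whichever array was left out. This probe set was brighter than 99.9% of all probe sets. The suffix _s_at marks probe sets whose probes may match several transcripts, and copies of RAN cannot be told apart there.

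The other RAN probe set, 200749_at, was brighter than 9.82% of all probe sets and gave no separation. It read 2.34, 2.49 and 2.39 at implantation sites and 2.42, 2.51 and 2.51 at interimplantation sites (log2 difference −0.08 ± 0.08 SE). The mean of both RAN probe sets was higher by 0.58 on the log2 scale (± 0.07 SE; limma adjusted p = 0.0066 over genes).

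RANBP1, which binds RAN-GTP and helps its hydrolysis, was higher at all 3 of its probe sets without passing. The brightest, 202483_s_at, read 4.95, 5.17 and 5.06 against 4.37, 4.76 and 5.00. Its groups overlapped through interimplantation site 3 (log2 0.35 ± 0.13 SE, limma adjusted p = 0.353). The other RANBP1 probe sets also overlapped. 202482_x_at read 4.89, 4.45 and 4.71 against 4.68, 4.26 and 4.24, and 221915_s_at read 3.81, 3.47 and 3.75 against 3.49, 3.61 and 3.44 (log2 0.29 and 0.16). With the mean of its probe sets RANBP1 was at log2 0.27 ± 0.07 SE (limma adjusted p = 0.125 over genes).

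The exchange factor and the GTPase activator each had 2 probe sets of opposite sign. RCC1 read 5.94, 5.62 and 5.73 against 5.44, 5.56 and 5.79 at 215747_s_at (log2 0.17 ± 0.11 SE). At 206499_s_at it read 4.51, 4.57 and 4.12 against 4.54, 4.48 and 4.50 (log2 −0.11 ± 0.11 SE), where implantation site 3 alone was low and the sign turned without it (log2 0.03). RANGAP1 read 6.26, 6.21 and 6.08 against 6.32, 6.38 and 6.29 at 212127_at, with all implantation arrays low (log2 −0.15 ± 0.08 SE, limma adjusted p = 0.548). At 212125_at it read 5.38, 5.23 and 5.25 against 5.12, 5.35 and 5.05, and the groups overlapped (log2 0.11 ± 0.09 SE). None of these 4 values passed. The log2 difference of RAN (1.24) lay above that of every regulator probe set (at most 0.35), and this gap between genes was not tested.

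Among the import receptors KPNB1 and KPNA1 rose, the importin beta and one importin alpha of the classical pathway, in which alpha binds the cargo's signal and beta carries the pair through the pore. Of 40 import probe sets 28 were higher (70%, against 46.4% of all probe sets) and 12 lower, with a median log2 difference of 0.07. The 22 bright ones had a mean over the 6 arrays that reached the median of all probe sets. Of these, 19 were higher (86.4%, against 47.7% of all probe sets as bright), and their median log2 difference was 0.23. In 15 import probe sets the groups separated with implantation above (37.5%, against 7.72% of all probe sets), and in 0 below (against 8.3%).

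KPNB1 had 6 probe sets, of which 4 separated the groups. The one that passed, 208974_x_at, read 5.03, 5.11 and 5.12 at implantation sites and 4.62, 4.62 and 4.79 at interimplantation sites (1.33-fold, log2 0.41 ± 0.08 SE, limma adjusted p = 0.0318; up to 0.148 with an array left out). The suffix _x_at marks probes that may cross-hybridise. The brightest, 213507_s_at, read 6.75, 6.66 and 6.60 against 6.29, 6.40 and 6.34 and did not pass (log2 0.32 ± 0.08 SE, limma adjusted p = 0.0812). 213573_at and 208975_s_at were at log2 0.22 and 0.16, and 213574_s_at and 213803_at at −0.02 and −0.01. Over the mean of the 6 the difference was 0.18 ± 0.06 SE and did not pass (limma adjusted p = 0.25 over genes).

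KPNA1 rose at 1 of 6 probe sets. 202058_s_at, the brightest, read 4.63, 4.68 and 4.82 against 4.25, 4.38 and 3.99, without overlap (1.42-fold, log2 0.50 ± 0.10 SE, limma adjusted p = 0.0433; up to 0.186 with an array left out). The other 5 KPNA1 probe sets were below the median brightness, overlapped between groups and lay between −0.11 and 0.11. The mean of all 6 was at log2 0.04 ± 0.07 SE (limma adjusted p = 0.896 over genes), so the rise of KPNA1 is that of 1 probe set.

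The remaining importin alphas did not pass. KPNA2 read 4.88, 4.89 and 4.98 against 4.64, 4.41 and 4.69 at 211762_s_at, with all implantation arrays above (log2 0.34 ± 0.09 SE, limma adjusted p = 0.119), and its second probe set was at 0.21. KPNA4 read 6.0, 5.83 and 5.69 against 5.64, 5.45 and 4.67 at 209653_at. Its large difference (log2 0.59 ± 0.20 SE, limma adjusted p = 0.275) goes with 1 low array, interimplantation site 3, and its dim probe set was at −0.13. KPNA3, KPNA5 and KPNA6 lay between −0.03 and 0.12 at all of their probe sets. Over the 16 importin alpha probe sets the median was 0.05, with 10 higher (62.5%, against 46.4% of all probe sets) and 6 lower.

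Of the importins that bind cargo without an alpha subunit, IPO7 and TNPO1 lay nearest to the threshold. IPO7, which imports ribosomal proteins and histone H1 among others, read 6.15, 6.46 and 6.05 against 5.74, 5.78 and 5.46 at 200992_at. All implantation arrays were above (1.48-fold, log2 0.56 ± 0.12 SE), and the limma adjusted p of 0.0504 just missed the threshold. It was 0.0425 when each gene was read at its brightest probe set only. With single arrays left out, the limma adjusted p over probe sets was 0.0644 to 0.184. The mean of the 4 IPO7 probe sets was at log2 0.17 ± 0.06 SE and did not pass (limma adjusted p = 0.338 over genes). A dimmer IPO7 probe set, 200993_at, also separated the groups (3.27, 3.27 and 3.29 against 2.78, 3.05 and 3.03), and the other 2, dim as well, were at −0.11 and −0.09.

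TNPO1, transportin 1, imports RNA-binding proteins such as hnRNP A1. Its 5 probe sets were all higher, and 4 separated the groups. 209226_s_at read 6.29, 6.65 and 6.67 against 5.81, 6.28 and 5.66, where interimplantation site 2 nearly reached implantation site 1 (log2 0.62 ± 0.15 SE, limma adjusted p = 0.0907). Without interimplantation site 2 it passed (log2 0.80, limma adjusted p = 0.0161). The adjusted p was between 0.0919 and 0.317 without any other array. The other TNPO1 probe sets were between 0.03 and 0.47, and the mean of the 5 was at 0.33 ± 0.07 SE (limma adjusted p = 0.0688 over genes).

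The rest of the import receptors did not pass. IPO5 separated the groups at its one bright probe set (5.04, 5.05 and 5.00 against 4.83, 4.83 and 4.50; log2 0.31 ± 0.10 SE) and was between −0.07 and 0.06 at 3 dim ones. TNPO3, the transportin of SR splicing factors, had 3 bright probe sets at 0.01, 0.31 and 0.20. IPO8 was at −0.15 ± 0.11 SE. IPO13, which carries cargo both ways, read 6.96, 6.88 and 6.87 against 6.90, 6.92 and 6.88 at a bright probe set, with overlapping groups (log2 0.0063 ± 0.07 SE; the sign turned in some alternatives).

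**Figure D2:**
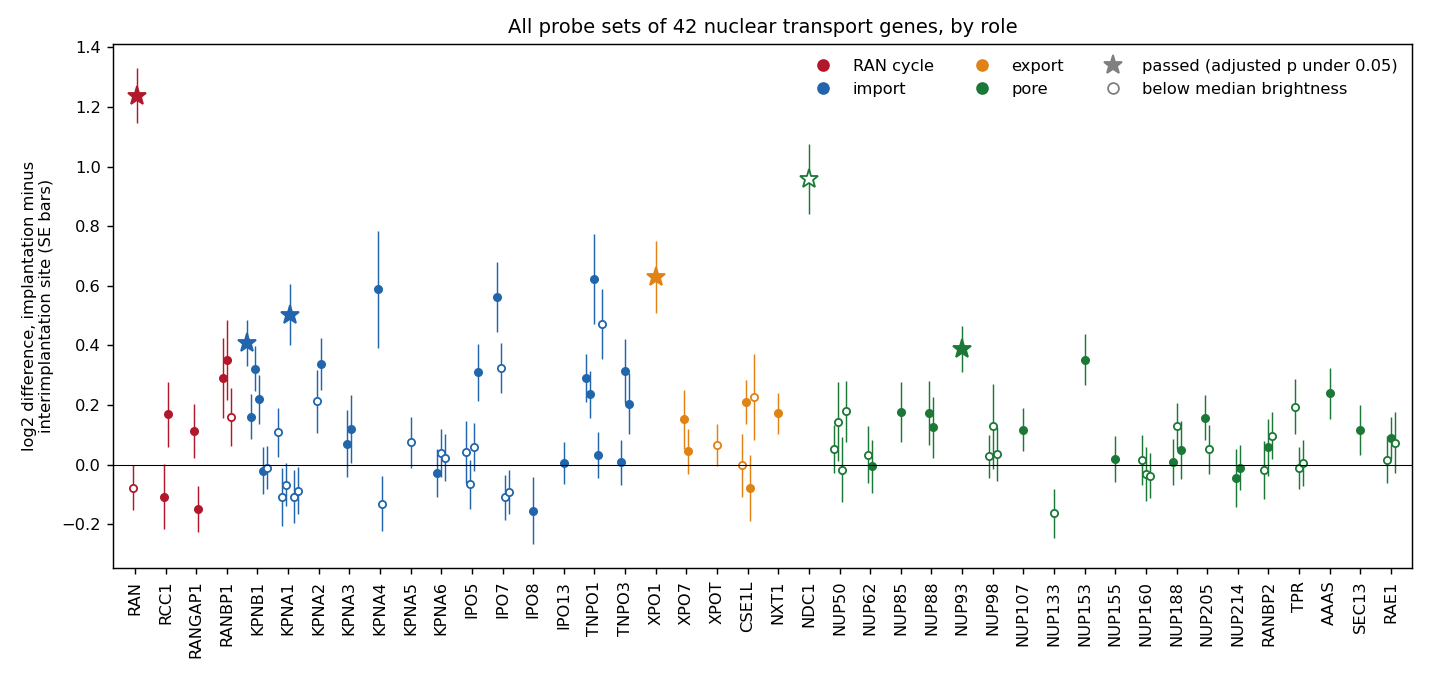
Log2 difference (implantation minus interimplantation site, vertical axis) with SE bars for each of the 97 probe sets, grouped by gene along the horizontal axis and coloured by role. Stars mark the 6 that passed and open symbols those below the median brightness; probe sets of 1 gene often differ, as for RAN (1.24 and −0.08) and KPNA1 (−0.11 to 0.50).

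Of the export genes XPO1 rose. XPO1, or CRM1, exports proteins with leucine-rich signals and several kinds of RNA. Its 1 probe set read 5.15, 5.30 and 5.12 at implantation sites and 4.45, 4.88 and 4.36 at interimplantation sites. The groups did not overlap, with interimplantation site 2 nearest to the implantation arrays (1.55-fold, log2 0.63 ± 0.12 SE, limma adjusted p = 0.0345). The adjusted p was 0.00429 without interimplantation site 2 and between 0.085 and 0.136 without any other array.

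CSE1L returns importin alpha to the cytoplasm after import. At 201112_s_at its arrays read 5.00, 5.02 and 5.03 against 4.72, 4.88 and 4.82, without overlap and without passing (log2 0.21 ± 0.07 SE, limma adjusted p = 0.305). Its brightest probe set, 210765_at, was at −0.08, and the others at 0.23 and −0.0023. NXT1, a cofactor of mRNA export, read 5.96, 6.0 and 6.0 against 5.81, 5.86 and 5.78, all implantation arrays above by a small amount (log2 0.17 ± 0.07 SE, limma adjusted p = 0.403). XPO7 (0.15 and 0.04) and the tRNA exporter XPOT (0.07, at a probe set brighter than 2.72% of all) overlapped. Over the 9 export probe sets 7 were higher (77.8%, against 46.4% of all probe sets), with a median of 0.15.

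In the pore NDC1 and NUP93 rose among 20 genes with 39 probe sets. Of these probe sets 30 were higher (76.9%, against 46.4% of all probe sets) and 9 lower (median log2 difference 0.05). NDC1 is a membrane protein that anchors the pore in the nuclear envelope. Its 1 probe set, 218073_s_at, read 3.10, 3.41 and 3.35 at implantation sites and 2.22, 2.58 and 2.19 at interimplantation sites, without overlap. The difference was 1.94-fold (log2 0.96 ± 0.12 SE, limma adjusted p = 0.00267; at most 0.0187 with an array left out). This probe set was dim, brighter than 18.4% of all probe sets.

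NUP93 ties the inner ring together. It read 6.16, 6.0 and 6.18 against 5.69, 5.75 and 5.75, without overlap (1.31-fold, log2 0.39 ± 0.08 SE, limma adjusted p = 0.0398; up to 0.184 with an array left out). Its partners in the inner ring, NUP155, NUP188 and NUP205, did not pass and lay between 0.01 and 0.16 over 6 probe sets. NUP205 read 4.67, 4.67 and 4.66 against 4.58, 4.53 and 4.41 at its brighter one, above in every implantation array (log2 0.16 ± 0.08 SE).

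NUP153, of the nuclear basket, read 4.71, 4.75 and 4.68 against 4.35, 4.50 and 4.22, without overlap, and did not pass (log2 0.35 ± 0.08 SE, limma adjusted p = 0.0898). The other basket proteins, NUP50 and TPR, were between −0.02 and 0.20 over 7 probe sets. AAAS, or aladin, which NDC1 holds at the pore membrane, read 5.73, 5.62 and 5.61 against 5.49, 5.49 and 5.25 (log2 0.24 ± 0.09 SE, limma adjusted p = 0.314), also without overlap.

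The outer ring, central channel and cytoplasmic face held no value past the threshold. For the outer ring (NUP85, NUP107, NUP133, NUP160 and SEC13) 4 of 7 probe sets were higher (57.1%, against 46.4% of all probe sets). The 7 lay between −0.16 and 0.18. NUP133 was lower in every implantation array (3.46, 3.57 and 3.41 against 3.58, 3.76 and 3.59) and NUP107 higher in every one (5.03, 5.10 and 4.96 against 4.92, 4.90 and 4.93), with log2 differences of −0.16 and 0.12. NUP62 of the channel was at −0.0054 and 0.03, and NUP98, which carries repeats on both faces, between 0.03 and 0.13. On the cytoplasmic face NUP88, NUP214, RANBP2 and RAE1, an mRNA export factor grouped with them, were between −0.04 and 0.17 over 10 probe sets.

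Differences were found mostly in bright probe sets. Of 52 bright member probe sets 43 were higher (82.7%, against 47.7% of all probe sets as bright) with a median of 0.16, and 5 passed (9.62%, against 1.22%). Of 45 dimmer ones 28 were higher (62.2%, against 45.1% of all probe sets as dim), with a median of 0.03, and NDC1 alone passed (2.22%, against 0.189%). In 27 genes with several probe sets the sign was mixed in 15, all higher in 11 and all lower in NUP214. The brightest probe set was above the dimmest in difference in 18 of the 27. When each gene was read at its brightest probe set, 34 of the 42 were higher, against 5689 of all 11963 genes. At the brightest probe set 6 rose (RAN, NDC1, XPO1, KPNA1, IPO7 and NUP93), against 0.777% of all genes. When the probe sets of a gene were averaged 4 rose: RAN, NDC1, NUP93 and XPO1 (limma adjusted p = 0.0495 for the last), against 0.61% of all genes in that reading.

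**Figure D3:**
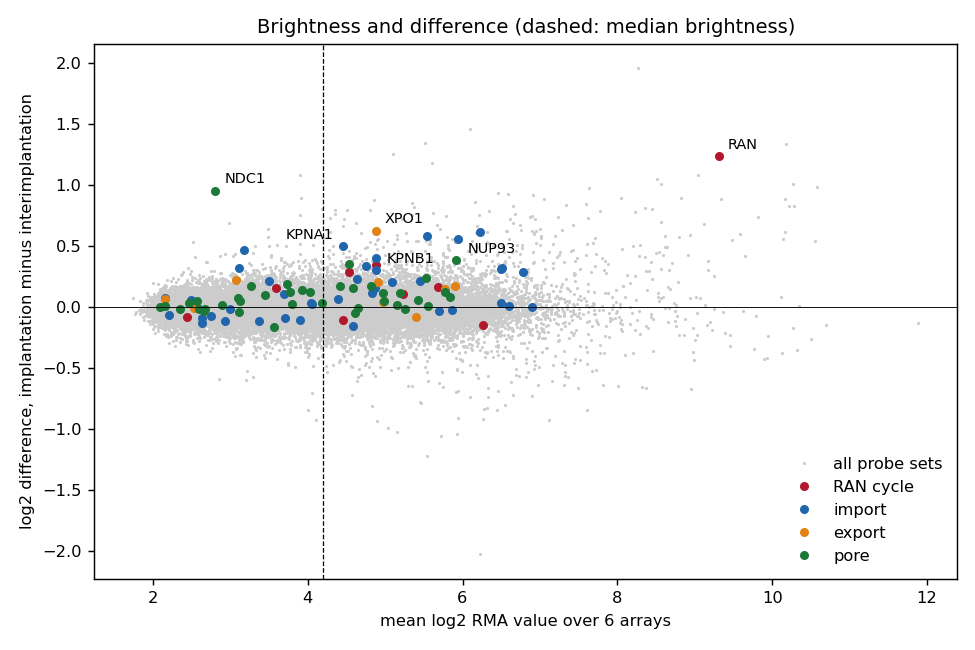
Mean log2 RMA value over 6 arrays (horizontal) against the log2 difference, implantation minus interimplantation site (vertical), with all 22215 probe sets in grey and the 97 described here in colour by role. The dashed line is the median brightness, 4.19; most coloured points above a difference of 0.3 lie to its right, and NDC1 stands highest on its left.

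Other genes of nuclear transport were taken from a wider list of 46, of which 32 were read by 56 probe sets. In limma's test 0 passed. Before adjustment a p under 0.05 was reached upward by 4 (7.14%) and downward by 1, against 5.27% and 5.23% of all probe sets. In 6 (10.7%) all implantation arrays lay above, against 7.72% of all probe sets, and in 1 (1.79%) below, against 8.3%. Of the 56, 32 were higher (57.1%, against 46.4% of all probe sets), with a median of 0.02. The smallest p was that of ENY2, a subunit of the mRNA export complex TREX-2, which read 7.62, 7.72 and 7.68 against 7.36, 7.41 and 7.29 (log2 0.32 ± 0.07 SE, adjusted p = 0.0799). NUP210, a membrane nucleoporin, came next, at −0.26 in one probe set, whose groups overlapped, and 0.15 in another, where all implantation arrays were above. The remaining NUP210 probe sets overlapped between groups and lay between −0.07 and 0.18. Without interimplantation site 1, NUP37 of the outer ring and THOC2 of mRNA export passed. With all arrays the groups overlapped for both (limma adjusted p = 0.323 for NUP37 and 0.779 for THOC2 at 222122_s_at). There interimplantation site 1 read THOC2 at 5.61, above every implantation array (4.84, 5.23 and 4.96). The brighter THOC2 probe set was at log2 0.02, and NUP37 was below the median brightness.

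**Figure D4:**
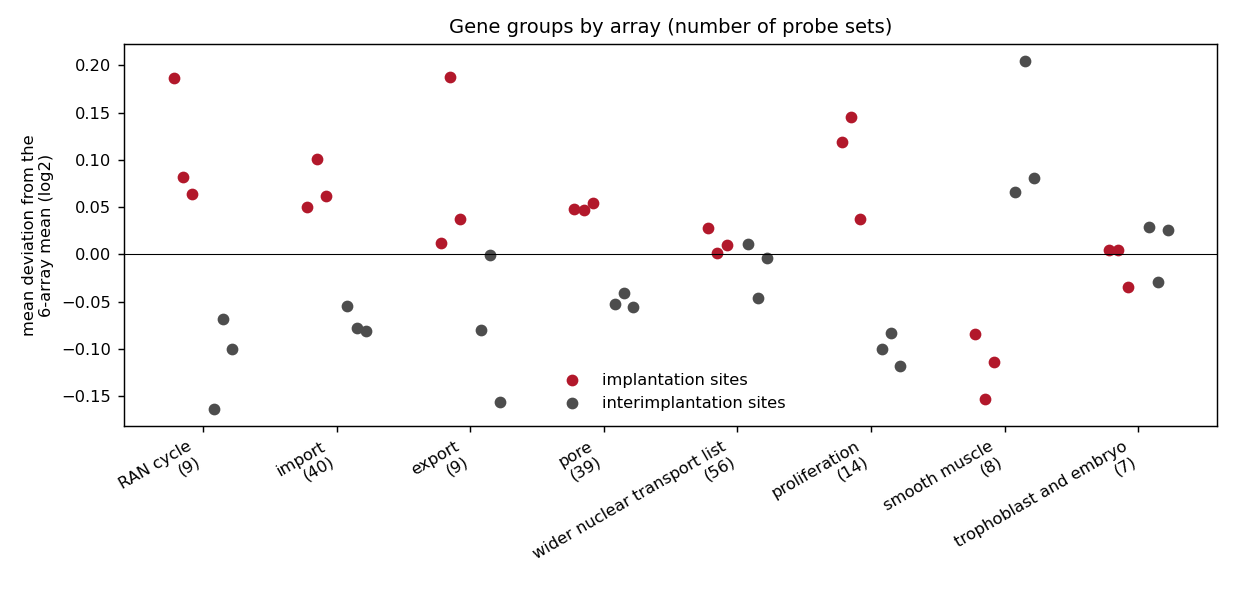
Mean deviation of each array from the 6-array mean (log2, vertical axis) for gene groups along the horizontal axis, with the number of probe sets in brackets and 1 dot per array. Implantation arrays (red) lie above interimplantation arrays (grey) in the 4 roles and the proliferation genes and below them in the smooth muscle genes. The RAN cycle group includes RAN itself (log2 difference 1.24 at 200750_s_at), whose rise was known when the list was made. For export the gap is small, with implantation site 1 at 0.012 and interimplantation site 2 at −0.0010. The wider list overlaps.

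Mean marker levels separated the groups for dividing cells, smooth muscle, leukocytes, epithelium and endothelium. They overlapped for stroma and for trophoblast and embryo. Each gene was read at its brightest probe set, and DES was counted both as smooth muscle and as stroma. Of 14 proliferation genes 10 were higher, and CCNA2 and PCNA rose, against 0.777% of all genes at the brightest probe set. CCNA2 and PCNA were read below the median brightness. Before adjustment a p under 0.05 in limma's test was reached upward by 7 of the 14 and downward by 0, against 5.27% and 5.23% of all probe sets. TOP2A, MCM2, BUB1 and AURKA were lower, at log2 −0.15, −0.11, −0.0091 and −0.0092. The mean level of the 14 was 4.44 to 4.55 in implantation and 4.29 to 4.32 in interimplantation arrays. Of 8 smooth muscle genes 3 were higher and 5 lower. ACTG2, TAGLN and MYLK fell, against 55 of all 11963 genes at the brightest probe set. ACTA2 and MYH11 were at 0.15 and 0.0034, and the mean level of the 8 was 5.13 to 5.19 against 5.35 to 5.48. Of 8 leukocyte genes 4 were higher and 4 lower. SPI1 fell (log2 −0.49), against the same 55 of all genes, and the mean level of the 8 was 3.78 to 3.81 against 3.84 to 3.89. Of 10 epithelial, 8 endothelial and 7 stromal genes none passed in limma's test. Before adjustment at 0.05, 3 epithelial genes were lower and 2 stromal genes higher, against 5.23% and 5.27% of all probe sets. In the same order, mean levels were 4.18 to 4.27 against 4.34 to 4.37, 4.32 to 4.37 against 4.39 to 4.46, and 6.22 to 6.36 against 6.14 to 6.28. For 7 trophoblast and embryo genes 0 passed, also before adjustment, and levels overlapped (4.45 to 4.49 against 4.46 to 4.51). RMA values have no zero, so no marker can be called absent. The part of these cell types in the differences was not tested, and in pieces of tissue a change in the number of cells and in RNA per cell cannot be told apart.

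A measure of RNA quality, the 3′ minus 5′ signal of control probe sets, separated the groups for actin and overlapped for GAPDH. How well these human control probes match hamster RNA is not given. The actin control's 3′ minus 5′ signal was −2.08 ± 0.22 at implantation and −1.70 ± 0.15 between embryos (log2 ± SD over 3 arrays each; the exact permutation test gave p = 0.1, its minimum), and that of GAPDH −0.20 ± 0.16 and 0.13 ± 0.17 (exact permutation p = 0.2). Its part in the differences of single probe sets was not tested.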

How the data were processed

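Deposited values are RMA summaries from Partek 6.6, as the submitters' processing notes name these tools. Settings and log base are not stated in those notes, and the deposited values, 1.65 to 12.1, were read as log2. Of 22283 probe sets 68 controls were left out. Probe sets of 1 symbol numbered 19065, of several 1043 and of none 2107. The comparison used limma 3.58.1 (R 4.3.3; lmFit and eBayes with no covariate, two-sided) with Benjamini-Hochberg adjustment over all 22215 probe sets, or over 11963 genes where said. All 44 symbols exist in the hamster RefSeq annotation BCM_Maur_2.0. Array medians were 4.18 to 4.20; the number of arrays limits the precision.

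The members, the lists and the rule for named genes were chosen with earlier results of these data known. Array values are given for members that passed, for RAN, RCC1, RANGAP1 and RANBP1, and in each role for the brightest member and the 2 of smallest p that did not pass; from the wider list those that passed, or else the 2 of smallest p, are named. Other members with array values were named after their values were seen. Markers of 7 cell types were counted. In simulated data of 22215 probe sets the fit found 40% of the 50 simulated differences of 1.25-fold. It found 100% of the 50 of 1.5-fold and 100% of the 100 of 2-fold, and made 9 false calls. These differences were placed only in bright probe sets, with independent normal noise, so the shares say nothing about dimmer ones. In the arrays themselves IPO7, at 1.48-fold, did not pass, while KPNA1, at 1.42-fold, did. Alternatives were other normalizations, filters, weights and arrays left out.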

Additional observations from a re-analysis of the deposited data

How the results depend on the processing

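The 6 rises held (6 of 6 shared) after repeated quantile normalization, median centring, cyclic loess and with array weights; with an intensity trend IPO7 joined them, and with either filter on brightness IPO7 passed while NDC1, too dim, was not tested. No probe set passed without _x_at and _s_at probe sets (0 of 48 tested), where RAN, KPNA1, KPNB1 and NDC1 are left out and XPO1 and NUP93 missed (adjusted p = 0.0539 and 0.0558); over all probe sets 37 rose and 20 fell there, in place of 156 and 79, with fewer probe sets tested. Array weights gave 133 falls over all probe sets. The members' median log2 difference was 0.16 among bright probe sets, 0.13 above the first quartile of brightness, 0.051 without _x_at and _s_at probe sets and 0.085 after cyclic loess. With single arrays left out 2 to 5 member probe sets rose (2 to 4 genes at the brightest probe set), 0 to 2 of the wider list, 83 to 140 probe sets in all, and 33 to 90 fell; the members' median was 0.071 to 0.085. RCC1 (206499_s_at) was between −0.19 and 0.030 with single arrays left out, and above 0 without implantation site 3. IPO13 was between −0.022 and 0.023 with single arrays left out, at −0.022 without implantation site 1, −0.0034 without interimplantation site 3, −0.0085 after quantile normalization and −0.0099 with array weights. The causes were not tested. With the replicate number as a block 6 member probe sets rose, 4 of them shared: KPNA1 and NUP93 missed (0.0632 and 0.061), and IPO7 and TNPO1 passed (0.0113 and 0.0379). The numbers were not taken as pairs, since no label says that a number marks a shared animal. Deviations of same-numbered arrays correlated at 0.05, −0.0025 and 0.07, while 4 of 6 arrays matched their own number best. These values do not settle whether the arrays were paired. Alternatives for the wider list were chosen after seeing the data.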
